A study of Mus musculus with 2 samples.

Results

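Signals that a hair follicle can send toward nerves, vessels and the arrector muscle were followed in single cells of mouse skin: Npnt, Egfl6, Nrtn, Bdnf, Chat, Nppc and Edn2. The 7 genes were found by symbol among the 31053 genes of the deposited matrices, 1 row each. The cells were hair follicle stem cells of wild type mice, strain C57BL/6;CD1, taken from skin at postnatal day 32, in anagen, when follicles grow hair. They had been sorted by FACS on the surface protein CD34 and on H2BGFP, a fluorescent histone under the K14 promoter, and were made into 2 libraries with the 10x Chromium 3′ kit, version 3. Both libraries belong to 1 group, replicates 1 and 2. How many animals stand behind each is not given in the sources used here, so the spread between them may be technical.

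The bulge, where the follicle stem cells sit, is also where the arrector muscle inserts, where touch-sensitive nerve endings wrap the follicle and where small vessels run close to the epithelium. In mouse skin, bulge cells lay down nephronectin (Npnt), a matrix protein bound by the integrin alpha chain Itga8 of the arrector muscle, and EGFL6, a related matrix protein placed beside lanceolate nerve endings. Neurturin (Nrtn) is a ligand of the GDNF family that acts through Gfra2 and Ret, BDNF is a neurotrophin read by Ntrk2 and Ngfr, and choline acetyltransferase (Chat) makes acetylcholine. C-type natriuretic peptide (Nppc) acts on the receptor Npr2 and relaxes vessels, and endothelin 2 (Edn2) constricts smooth muscle through Ednra and Ednrb.

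The rule of at least 1000 detected genes and at most 10% mitochondrial UMIs left 3918 and 3041 cells in replicates 1 and 2, and 3704 and 2910 once called doublets were removed, at medians of 9748 and 9596 UMIs (unique molecular identifiers, counted transcripts). The libraries shared 11 cell barcodes, 3 of them among the kept cells. Each UMI was assigned at random to a clustering part or a held-out part. Clusters were drawn without the 7 genes and without the other listed niche genes, and levels are held-out UMIs summed over the cells of a cluster and library and scaled to the same total in each (CPM). There were 11 clusters, named here by number and some of their leading genes: 5 of non-cycling keratinocytes (1 Spon1, 2 Pthlh Wfdc18, 3 Gnmt Scrg1 Nrg1, 5 Rasl11a Fhl1 and 8 Cst6 Defb6 Ly6d), 2 of cycling keratinocytes (6 and 7), 2 mixed in cycling (4 Sms Dnph1 and 10 Krt28) and 2 of other cells (9 Col3a1 and 11 Cd74). The libraries differed in 2 clusters that bear on the signals. Of the cells of cluster 4, which were deeper than most at a median of 15519 UMIs, 94.1% came from replicate 2. Cluster 8 held 2.40% of the cells of replicate 1 (89 cells) and 10.4% of those of replicate 2 (302 cells). The cells of other kinds were few. The 6 fibroblast markers summed to 35281 and 36915 CPM in cluster 9 and the 5 endothelial markers to 443 and 78.7 CPM there. Atoh1, a Merkel cell gene, was at 0 in all 11 clusters, and Des and Myh11, genes of smooth muscle, were at 0 in clusters 3 and 8. In cluster 9, Des was at 102 and 126 CPM and Myh11 at 2.22 and 138 CPM, where 2.22 CPM is 1 UMI. Cluster 9 thus carried smooth muscle genes as well, Des in both libraries and Myh11 beyond 1 UMI in replicate 2 alone.

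All 7 signals differed among the non-cycling clusters in a joint edgeR quasi-likelihood test with Benjamini-Hochberg adjustment over 10812 genes, where 41.5% of genes were called. Adjusted p-values lay between 4.20e-12 for Edn2 and 1.52e-07 for Egfl6. Against the mean of the other non-cycling clusters, cluster 8 had more Npnt, Nrtn, Bdnf, Chat and Egfl6 (5 of 7, where 12.7% of genes were higher) and less Edn2 (1 of 7, where 9.91% were lower). Cluster 3 had more Nppc and Npnt (2 of 7, where 10.7% of genes were higher), and Edn2 was higher in cluster 1 (1 of 7, where 7.96% were higher) and in cluster 5 (1 of 7, where 11.7% were higher). Among the non-cycling clusters the signals thus fell on 3 states. By mean level, the nerve and muscle signals were highest in cluster 8, Nppc in cluster 3 and Edn2 in cluster 1. Cluster 4, mixed in cycling and outside this test, also held Npnt (72.4 and 112 CPM) and Nrtn (52.3 and 150 CPM). For Npnt and Egfl6 the place of cluster 8 rested on replicate 2, as given below. The contrast takes a mean of log levels, in which each cluster and library counts alike, so fitted changes can differ from ratios of summed CPM, in either direction. For the signals called higher, ratios to the pooled other non-cycling clusters are given per library, most with exact 95% counting intervals. In 4 of 7 other clusterings the Krt24-led cells of cluster 8, described below, and the Nrg1-led cells of cluster 3 fell into 1 cluster, and there the difference between clusters 3 and 8 could not be seen.

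**Figure D1:**
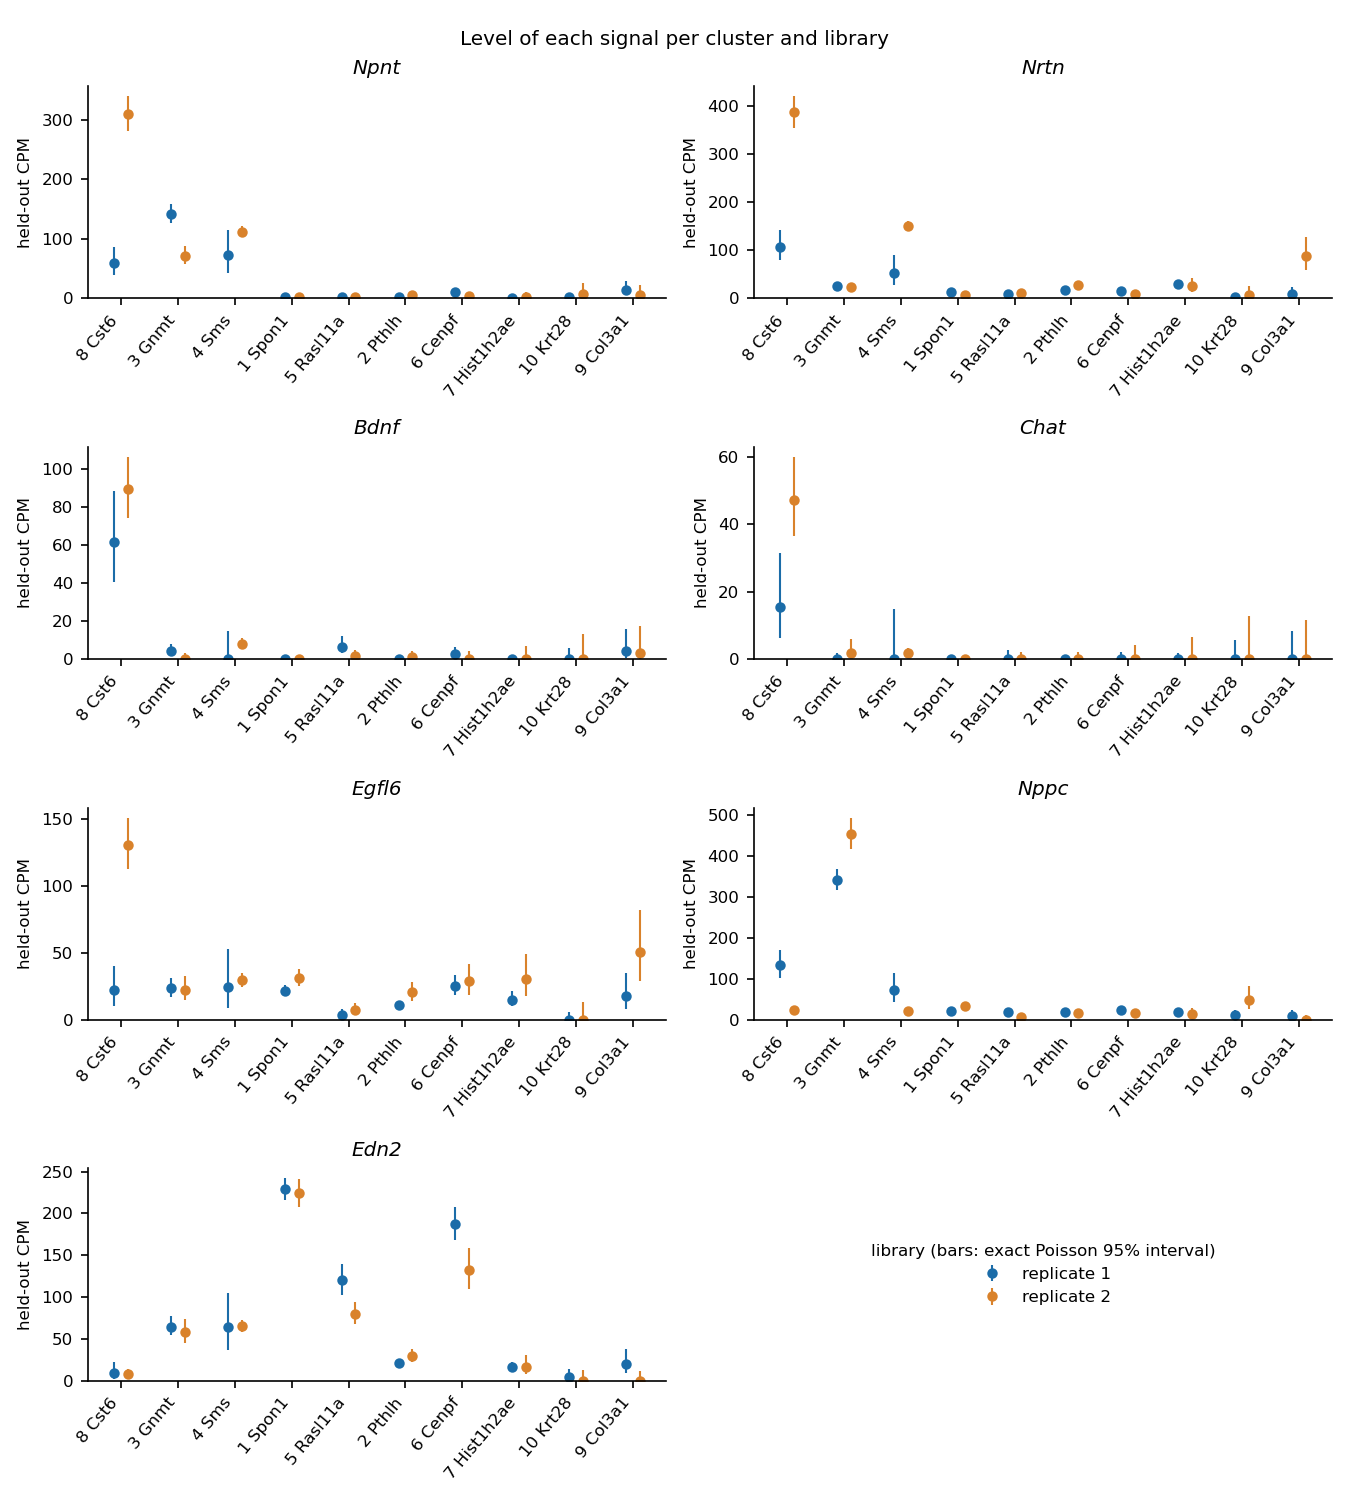
Held-out CPM of each signal (vertical axis) in clusters 8, 3, 4, 1, 5, 2, 6, 7, 10 and 9 (horizontal axis, number and a leading gene), with replicate 1 in blue, replicate 2 in orange and exact Poisson 95% intervals as bars. Bdnf and Chat are highest in cluster 8, Nppc reaches 341 and 454 CPM in cluster 3, Edn2 reaches 229 and 224 CPM in cluster 1, and Npnt, Nrtn and Egfl6 in cluster 8 are several times higher in replicate 2 than in replicate 1.

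Windows of 250 bases before the start sites of 4 of the genes that were higher in cluster 8 are shown because each was called higher there, Egfl6 on the strength of replicate 2. They were taken from RefSeq on GRCm38.p6 and are given 5′ to 3′ on the strand of the gene, here the minus strand for each. Capitals mark a match to CAGCTG, the E-box searched. The Nrtn window lies at chr17:56757549-56757798, the Chat window at chr14:32465910-32466159, the first of the Npnt windows at chr3:132950292-132950541 and the Egfl6 window at chrX:166585717-166585966.
Nrtn: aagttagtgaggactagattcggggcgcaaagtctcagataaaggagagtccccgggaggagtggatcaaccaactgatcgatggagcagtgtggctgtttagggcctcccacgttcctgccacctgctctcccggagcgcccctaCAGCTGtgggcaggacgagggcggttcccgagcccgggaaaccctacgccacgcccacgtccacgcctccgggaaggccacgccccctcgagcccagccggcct
Chat: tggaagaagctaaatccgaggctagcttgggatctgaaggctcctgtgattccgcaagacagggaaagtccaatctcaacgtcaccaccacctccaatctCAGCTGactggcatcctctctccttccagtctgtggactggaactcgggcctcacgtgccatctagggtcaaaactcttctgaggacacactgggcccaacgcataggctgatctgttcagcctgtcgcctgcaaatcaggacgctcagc
Npnt: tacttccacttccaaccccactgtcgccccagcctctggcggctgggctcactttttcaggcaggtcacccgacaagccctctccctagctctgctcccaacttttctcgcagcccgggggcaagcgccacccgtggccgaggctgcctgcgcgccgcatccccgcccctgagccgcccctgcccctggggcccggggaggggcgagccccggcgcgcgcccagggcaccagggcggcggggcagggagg
Egfl6: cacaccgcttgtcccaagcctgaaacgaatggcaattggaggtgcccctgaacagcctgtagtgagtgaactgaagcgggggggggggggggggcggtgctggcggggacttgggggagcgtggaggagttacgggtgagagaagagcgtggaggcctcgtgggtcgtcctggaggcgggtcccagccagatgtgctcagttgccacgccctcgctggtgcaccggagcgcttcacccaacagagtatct

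The E-box began 104 bases before the Nrtn start and 150 bases before the Chat start, and it was present in 13% of 32851 promoter windows of the same length, counted on both strands. The first Npnt window and the Egfl6 window held none of the 8 motifs searched. These were ACAAAG (16.5% of windows), TAATTA (4.84%), GGAAAA (20.4%), GTAAACA (3.17%), TGANTCA (6.75%), GGAATG (12.6%), TGACGTCA (1.55%) and CAGCTG. The second Npnt window and the Edn2 window held none of them either, and the Nppc window held 1 ACAAAG on the strand opposite the gene, 229 bases before the start. The 7 windows of Bdnf, a gene with many start sites, held 9 matches to 5 of the motifs. A match describes these letters and is not a binding site.

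Npnt (chr3:132881745-132950291, minus strand) was found in 3 clusters. In cluster 8 it stood at 59.1 CPM in replicate 1 (27 UMIs) and 309 CPM in replicate 2 (433 UMIs), in cluster 3 at 142 and 71.6 CPM, and in cluster 4 at 72.4 and 112 CPM. It stayed between 0.513 and 11.1 CPM in each library in the other keratinocyte clusters. The order of the first 3 was therefore not the same in the libraries: cluster 3 was highest in replicate 1 and cluster 8 in replicate 2, and their ranges overlapped. The fitted log2 fold change was 5.02 ± 0.37 (SE) in cluster 8 (adjusted p = 6.66e-11) and 4.06 ± 0.37 in cluster 3 (adjusted p = 9.30e-09, edgeR quasi-likelihood test with Benjamini-Hochberg adjustment). In ratios to the pooled other non-cycling clusters, cluster 8 was 2.77 times as high in replicate 1 (interval 1.80 to 4.11) and 22.8 times in replicate 2 (18.4 to 28.5), and cluster 3 was 35.9 times as high in replicate 1 and 1.27 times in replicate 2 (0.996 to 1.60). After thinning each cell to 5000 UMIs, 18 of 85 cells of cluster 8 had an Npnt UMI in replicate 1 (21.2%) and 184 of 278 in replicate 2 (66.2%). In the Col3a1-led cells of cluster 9, used as a level of background, the shares were 6.45% and 2.56%. Without thinning, 359 of 556 cells of cluster 4 held Npnt in replicate 2, beside 227 of 302 cells of cluster 8. Npnt was lower than the mean of the other non-cycling clusters in clusters 1, 2 and 5, by -2.99, -2.62 and -3.47 on the log2 scale, with adjusted p-values of 0.0050, 0.0085 and 0.0024 by the same test. In all, 3 of 7 signals were lower in cluster 1 (Npnt, Nrtn and Bdnf; 5.14% of genes), 3 of 7 in cluster 2 (Npnt, Nppc and Edn2; 9.23% of genes) and 4 of 7 in cluster 5 (Npnt, Nrtn, Nppc and Egfl6; 10.8% of genes).

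Egfl6 (chrX:166523007-166585720, minus strand) was spread over most keratinocyte clusters. It stood in cluster 8 at 21.9 CPM in replicate 1, from 10 UMIs, and at 131 CPM in replicate 2, from 183 UMIs. In clusters 1, 3, 4, 6 and 7 it lay between 14.9 and 31.3 CPM, so that cluster 8 did not stand apart in replicate 1. Its log2 fold change in cluster 8 was 2.48 ± 0.26 (SE; adjusted p = 6.34e-08, edgeR quasi-likelihood test). The ratio to the pooled other non-cycling clusters was 1.37 in replicate 1, with an interval of 0.649 to 2.57 that includes no difference, and 5.90 in replicate 2 (4.77 to 7.31). Cluster 5 was low, at 3.53 and 7.39 CPM (log2 -2.57 ± 0.40, adjusted p = 2.12e-05 by the same test). Cluster 9 held 17.7 and 50.3 CPM, which puts Col3a1-led cells within the range of the keratinocytes for this gene.

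Nrtn (chr17:56751325-56757530, minus strand) was highest in cluster 8 in both libraries, at 107 CPM in replicate 1 (49 UMIs) and 387 CPM in replicate 2 (543 UMIs). Cluster 4 came next with 52.3 and 150 CPM, and the other keratinocyte clusters lay between 3.08 and 28.7 CPM. The ranges of clusters 8 and 4 overlapped, whereas cluster 4 and the next, cluster 7 with 28.7 and 25.3 CPM, did not. The fitted log2 fold change in cluster 8 was 4.03 ± 0.29 (SE; adjusted p = 4.44e-11, edgeR quasi-likelihood test), and the ratios were 6.53 (4.70 to 8.91) in replicate 1 and 26.6 (21.7 to 32.8) in replicate 2. Thinned detection in cluster 8 was 31.8% and 60.4%. In cluster 9 the shares were 4.84% and 15.4%, at 8.86 and 88.1 CPM, so the Nrtn level of Col3a1-led cells differed between libraries as well. Of all Nrtn UMIs, cluster 8 held 13.8% in replicate 1 and 39.5% in replicate 2, and cluster 4 held 49.2% in replicate 2. In replicate 1 the larger clusters 2, 1 and 3 held more than cluster 8, at 26.9%, 16.1% and 14.6%.

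Bdnf (chr2:109674700-109727007, plus strand) stood far higher in cluster 8 than elsewhere. It lay there at 61.2 CPM in replicate 1 (28 UMIs) and 89.2 CPM in replicate 2 (125 UMIs), against at most 8.03 CPM in any other keratinocyte cluster and library. No other cluster overlapped with it, and the clusters below it, 5 and 4, could not be ordered. The log2 fold change was 6.43 ± 0.44 (SE; adjusted p = 4.44e-11, edgeR quasi-likelihood test), with ratios of 46.7 (25.2 to 88.5) and 139.5 (58.2 to 437). Few cells carried it: 10.6% and 20.5% of thinned cells of cluster 8, against 3.23% and 2.56% of cluster 9. Over all kept cells, 36 cells of replicate 1 and 130 of replicate 2 held Bdnf, with 2.64 and 2.55 UMIs per cell that had any. Cluster 8 held 46.3% of the Bdnf UMIs of replicate 1 and 67.8% of those of replicate 2, and cluster 4 held 25.6% in replicate 2.

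Chat (chr14:32408203-32465989, minus strand) had the fewest transcripts and the narrowest range. All 20 UMIs of replicate 1, in 12 cells, lay in cluster 8, as did 144 of the 161 UMIs of replicate 2 (89.4%), and 15 more were in cluster 4. Held-out levels in cluster 8 were 15.3 CPM (7 UMIs) and 47.1 CPM (66 UMIs), and clusters 1, 2, 5, 6, 7 and 10 were at 0 in both libraries. In cluster 1, for example, a count of 0 allowed up to 0.542 CPM in replicate 1 and up to 0.967 CPM in replicate 2. In replicate 1, 7 UMIs stood against 0 in the pooled other non-cycling clusters, at least 74.0-fold higher against a floor of 3 counts over that pool. In replicate 2, 66 UMIs stood against 2, a ratio of 184 (49.0 to 1552). The edgeR quasi-likelihood test gave an adjusted p = 1.40e-08 for cluster 8; DESeq2 gave 0.31. After thinning, 8 of 85 and 70 of 278 cells of cluster 8 had a Chat UMI (9.41% and 25.2%), and 0 of 62 and 0 of 39 cells of cluster 9 did. Slc18a3, the vesicular acetylcholine transporter, overlaps Chat on the same strand and had 1 and 3 UMIs in keratinocytes.

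Nppc (chr1:86666291-86670571, minus strand) was concentrated in cluster 3, with 341 CPM in replicate 1 (687 UMIs) and 454 CPM in replicate 2 (545 UMIs). Cluster 8 followed in mean level but differed between libraries, with 133 and 22.8 CPM, as did cluster 4 with 72.4 and 20.3 CPM. No other cluster reached 50 CPM. Cluster 3 did not overlap with any of them, and below it neighbouring clusters overlapped. The log2 fold change in cluster 3 was 4.08 ± 0.27 (SE; adjusted p = 2.67e-11, edgeR quasi-likelihood test), with ratios of 13.8 (12.1 to 15.8) and 20.6 (17.3 to 24.5). In cluster 8 Nppc was not called (log2 0.66 ± 0.42, adjusted p = 0.30); the ratio was 2.04 (1.55 to 2.65) in replicate 1 and 0.259 (0.176 to 0.369) in replicate 2, on opposite sides of the other clusters. In clusterings that put cells of clusters 3 and 8 together, Nppc was called in the cluster matched to 8, at log2 2.83 to 3.71. Nppc was uneven from cell to cell, with 3.72 and 3.76 UMIs per cell that had any, up to 76 and 66 in 1 cell, and 68.7% and 65.4% of its UMIs in cells holding 5 or more. Thinned detection in cluster 3 was 45.1% and 47.1%, against 8.06% and 0% in cluster 9. Nppc was lower in cluster 2 (log2 -1.61 ± 0.39, adjusted p = 0.0035) and in cluster 5 (log2 -2.34 ± 0.47, adjusted p = 4.92e-04) by the same test.

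Edn2 (chr4:120161206-120167360, plus strand) gave the most even picture between libraries. It stood at 229 and 224 CPM in cluster 1, 187 and 132 in cycling cluster 6, 120.0 and 80.2 in cluster 5, 64.4 and 64.7 in cluster 4, and 64.6 and 58.3 in cluster 3. Cluster 8 was near the bottom with 8.75 and 7.85 CPM, from 4 and 11 UMIs. In this order every neighbouring pair of clusters was separate except 4 and 3. The log2 fold change was 2.80 ± 0.17 (SE) in cluster 1 (adjusted p = 1.35e-11), 1.18 ± 0.20 in cluster 5 (adjusted p = 6.08e-05) and -3.08 ± 0.36 in cluster 8 (adjusted p = 2.39e-07), all by the edgeR quasi-likelihood test. The cluster 8 call was lost with doublets kept (log2 -1.15, adjusted p = 0.052), at a mitochondrial limit of 20% (-0.51, 0.39) and with the signals used to cluster (-0.95, 0.10), where the matched cluster also held cells of cluster 3. The cluster 1 ratios were 5.17 (4.63 to 5.79) and 5.03 (4.36 to 5.80), and the cluster 8 ratios 0.0755 and 0.0641. In cluster 5 the ratios were 1.07 (0.910 to 1.26) and 0.724 (0.601 to 0.866), so the fitted increase was not seen against the other clusters pooled, which include cluster 1. Among thinned cells, 53.0% and 50.2% of cluster 1 had an Edn2 UMI. In cluster 8 it was 0 of 85 cells and 8 of 278 (2.88%), close to the 3.23% and 0% of cluster 9. Cluster 1 held 60.9% of Edn2 UMIs in replicate 1 and 49.9% in replicate 2.

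At a finer resolution of 0.8, cluster 8 split into a Krt24-led cluster (finer 11, with Calml3, Tgm5 and Grem1; 67 and 261 cells) and a Defb6-led cluster (finer 15, with Cst6, Ly6d and Krt79; 23 and 36 cells). Of the 15 bulge markers, 11 were highest among keratinocyte clusters in the Krt24-led cells, including Krt24 at 79.1 and 416 CPM, Cd34 at 204 and 411 CPM and Grem1. Calml3 and Dmkn, from the list of differentiation genes, were among its leading genes too. Within cluster 8, the nerve and muscle signals lay mostly with the Krt24-led cells. Npnt was 89.0 and 389 CPM there, Nrtn 148 and 499, Egfl6 36.3 and 164, Bdnf 89.0 and 116, and Chat 23.1 and 61.1. Among all finer keratinocyte clusters, Nrtn, Bdnf and Chat were highest in the Krt24-led cells in both libraries. Npnt was not: in replicate 1 it was higher in Nrg1-led cells (finer 12), at 158 CPM. Egfl6 in replicate 1 hardly stood apart, with 30.4 CPM in Mat2a-led cells (finer 5). In replicate 2, Npnt and Egfl6 were both highest in the Krt24-led cells. In the Defb6-led cells, Chat was at 0, Npnt at 0 and 13.1 CPM, Egfl6 at 0 and 16.4, Nrtn at 25.3 and 13.1, and Bdnf at 6.32 and 0. These few cells gave only 0 to 5 UMIs per value. For Chat, the interval of the ratio to the pooled others reached up to 65.2 in replicate 1 and 1.61 in replicate 2. Replicate 1 therefore says little on Chat in the Defb6-led cells. Krt24 and Cd34 were thus also higher in replicate 2 than in replicate 1 among the Krt24-led cells, as Npnt, Nrtn, Egfl6 and Chat were. Whether the cells of the 2 libraries in this cluster are of 1 kind was not tested. The 9 nerve, Schwann and Merkel cell markers summed to 21.9 and 141 CPM in cluster 8, the highest keratinocyte value in replicate 2, but to 16.5 and 17.6 CPM in the Krt24-led cells, within the range of the other finer clusters.

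All 7 signals were again called in the joint test at this resolution (58.1% of 10192 genes). The Krt24-led cluster had more Npnt (log2 5.79 ± 0.29, SE), Nrtn (4.32 ± 0.25), Bdnf (7.82 ± 0.46), Egfl6 (2.64 ± 0.24), Chat and Nppc (1.56 ± 0.46), 6 of 7 where 11.4% of genes were higher, and less Edn2 (-2.98 ± 0.48), 1 of 7 where 9.60% were lower. Adjusted p-values by the edgeR quasi-likelihood test ran from 9.30e-18 for Npnt to 0.011 for Nppc, and Nppc again differed between libraries, at 201 and 26.8 CPM. Its ratio to the pooled others was 3.12 (2.37 to 4.05) in replicate 1 and 0.311 (0.207 to 0.451) in replicate 2, so the fitted increase held in replicate 1 alone, where 57 of 127 Nppc UMIs lay in 1 cell. Cluster 3 split mostly into Nrg1-led cells (finer 12, 246 and 46 cells) and Scrg1-led cells (finer 6, 180 and 276 cells). In the fit both had more Nppc, with 383 and 376 CPM in the Nrg1-led and 217 and 427.5 CPM in the Scrg1-led cells, and both had more Npnt, with 158 and 113 CPM in the Nrg1-led and 74.0 and 61.2 CPM in the Scrg1-led cells. Log2 fold changes were 4.01 ± 0.30 and 5.03 ± 0.33 for Nppc and Npnt in the Nrg1-led cells, and 3.79 ± 0.28 and 3.66 ± 0.37 in the Scrg1-led cells. The Npnt ratios were 18.2 (14.5 to 23.0) and 1.96 (1.25 to 2.92) in the Nrg1-led cells, and 3.88 (2.93 to 5.07) and 1.04 (0.797 to 1.33) in the Scrg1-led cells, where replicate 2 showed no difference beyond counting error. The Nppc ratios were 11.01 and 5.23 in the Nrg1-led and 3.79 and 15.1 in the Scrg1-led cells. Bdnf was also called higher in the Nrg1-led cells, from 8 and 0 UMIs (log2 2.87 ± 0.93, adjusted p = 0.023), which makes 3 of 7 where 13.5% of genes were higher. Edn2 was also called higher in the Scrg1-led cells (log2 0.69 ± 0.22, adjusted p = 0.045), 3 of 7 where 7.15% were higher, though its ratios to the pooled others were 0.910 (0.733 to 1.12) and 0.575 (0.448 to 0.728). Cluster 1 split mostly into 3, and Edn2 was higher than the mean of the others in each. It was 353 and 384 CPM in finer cluster 5, led by Mat2a, Gjb6 and Spon1 (log2 2.95 ± 0.15, adjusted p = 1.81e-16, where 12.3% of genes were higher), 189.8 and 279 CPM in finer 10 (9.77% higher), and 182 and 165 CPM in finer 2 (11.9% higher). In finer 5, 67.6% and 69.4% of thinned cells had an Edn2 UMI.

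**Figure D2:**
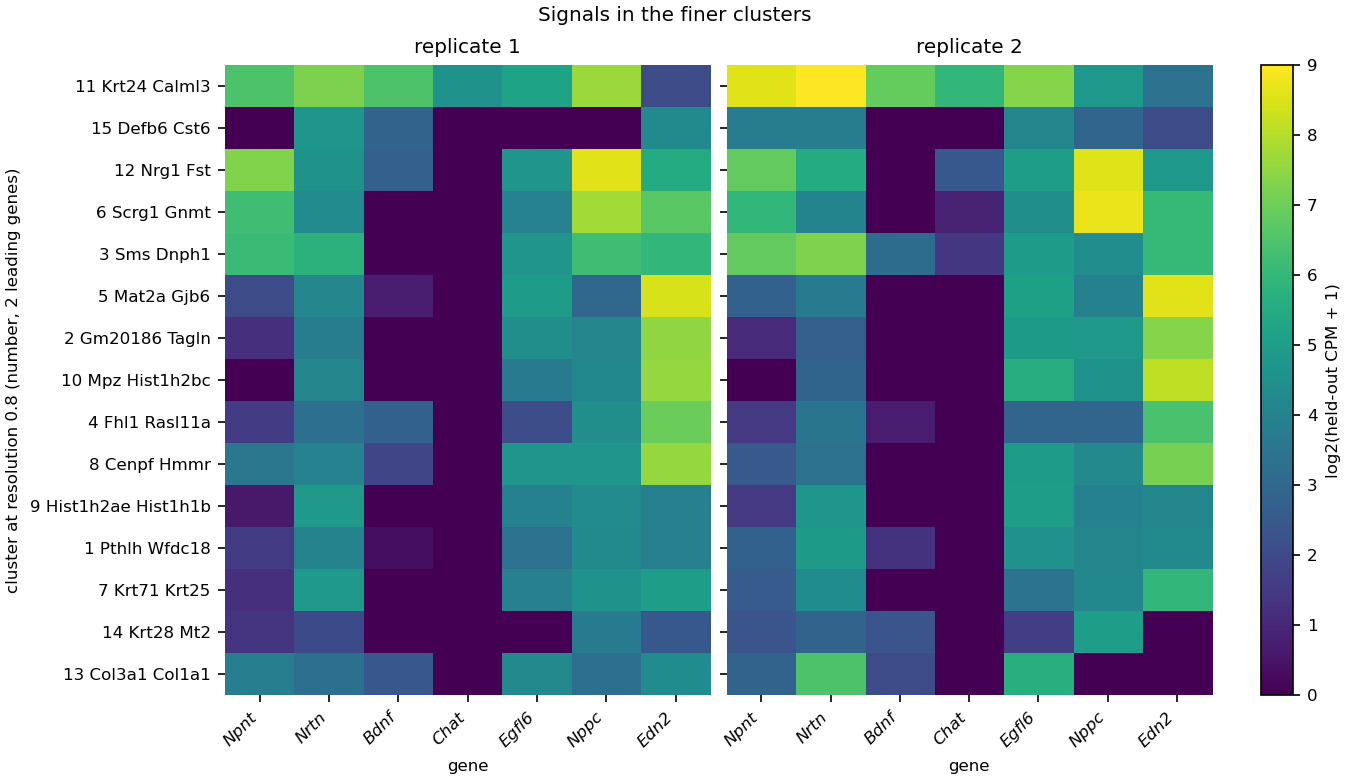
Level of each signal (columns, log2 of held-out CPM + 1, colour) in the keratinocyte clusters and the Col3a1-led cluster at resolution 0.8 (lines, number and 2 leading genes), one panel per library. Npnt, Nrtn, Bdnf, Chat and Egfl6 are bright in the Krt24-led line at the top and mostly dark in the Defb6-led line under it, Nppc is brightest in the Nrg1-led and Scrg1-led lines, and Edn2 in the Mat2a-led line.

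Single Krt24-led cells often held several of the 5 signals Npnt, Egfl6, Nrtn, Chat and Bdnf. These 5 are the signals called higher in cluster 8, which held 98.8% of the Krt24-led cells. Higher shares in Krt24-led cells than elsewhere therefore follow from this choice and are a description. Nppc and Edn2 were not counted. After thinning to 5000 UMIs, at least 2 of the 5 were found in 19 of 64 Krt24-led cells of replicate 1 (29.7%) and 184 of 241 of replicate 2 (76.3%), against 72 of 3376 (2.13%) and 159 of 2432 (6.54%) of the other keratinocytes. As found, without thinning, the shares were 43.3% and 85.4%, against 5.48% and 17.2%. These others pool all remaining keratinocyte clusters, and cluster 4 among them often held Npnt and Nrtn. In replicate 2, as found, 359 of its 556 cells had Npnt and 395 had Nrtn. Cells with several signals were not counted for cluster 4 alone, so the shares give no comparison with it. All 5 were found in 1 and 15 thinned Krt24-led cells and in 0 of the other keratinocytes. In replicate 2, 46.1% of thinned Krt24-led cells held at least 3 of them, and in replicate 1 7.81% did.

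**Figure D3:**
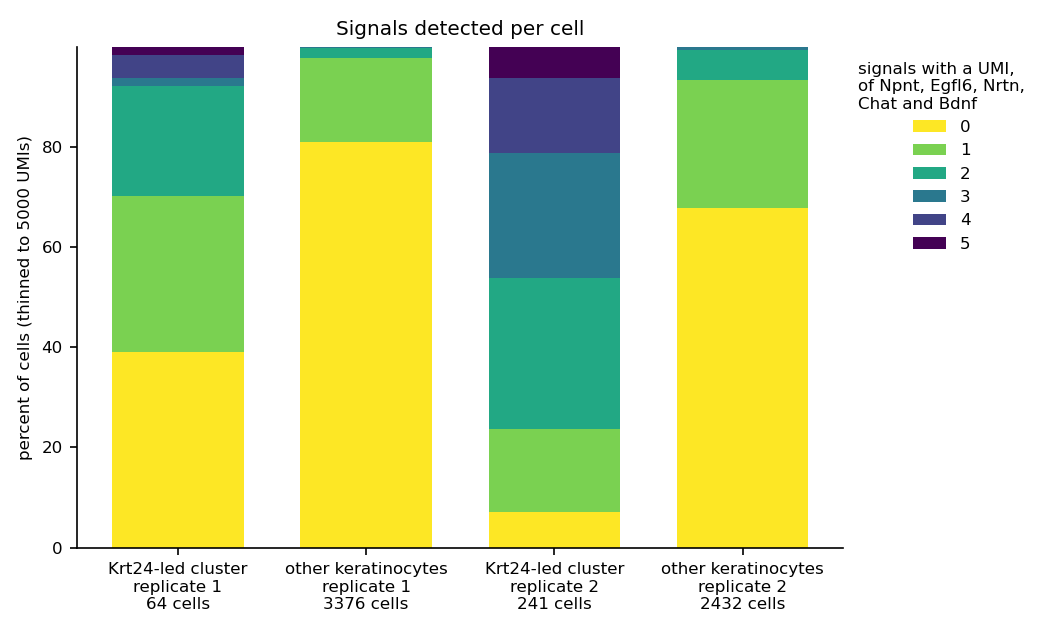
Percent of cells (vertical axis) with 0 to 5 of the signals Npnt, Egfl6, Nrtn, Chat and Bdnf, after thinning to 5000 UMIs, in Krt24-led cells and in the other keratinocytes of each library. At least 2 signals were found in 29.7% and 76.3% of Krt24-led cells and in 2.13% and 6.54% of the others.

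Whether 2 signals shared a cell more often than their states and depths would give was described for the 21 pairs over 3440 and 2673 thinned keratinocytes. The expected count takes detection as independent within each cluster and class of depth (low, middle or high UMI total), and it carries no test. In 12 of the 21 pairs the found count lay above the expected one in both libraries. Npnt and Nrtn were together in 33 and 219 cells, with 25.6 and 209 expected. Chat and Bdnf shared 2 and 25 cells, with 0.964 and 16.9 expected, Egfl6 and Chat 4 and 46 cells, with 1.64 and 34.2 expected, and Nrtn and Bdnf 8 and 60 cells, with 3.79 and 47.4 expected. Within the finer clusters the expected count of Npnt with Nrtn was 26.1 and 216, so the excess in replicate 2 was small. Finer expected counts of the other pairs named here are not given. Their expected counts pool Krt24-led with Defb6-led cells in cluster 8, which can make them too low.

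Edn2 and Nppc went the other way. They shared 64 and 40 thinned cells, with 87.5 and 63.0 expected, and within the finer clusters 83.4 and 60.2 were expected. Among cells with at least 2 UMIs of each, 24 and 29 were found with 46.8 and 44.5 expected. Edn2 met Chat in 0 and 1 cells, with 0 and 3.02 expected, and Bdnf in 4 and 3 cells, with 4.45 and 8.20 expected. Nppc and Bdnf differed between libraries, at 3 cells with 4.22 expected in replicate 1 and 14 with 4.996 expected in replicate 2. Cells of a library share their source, so these counts describe 2 libraries.

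**Figure D4:**
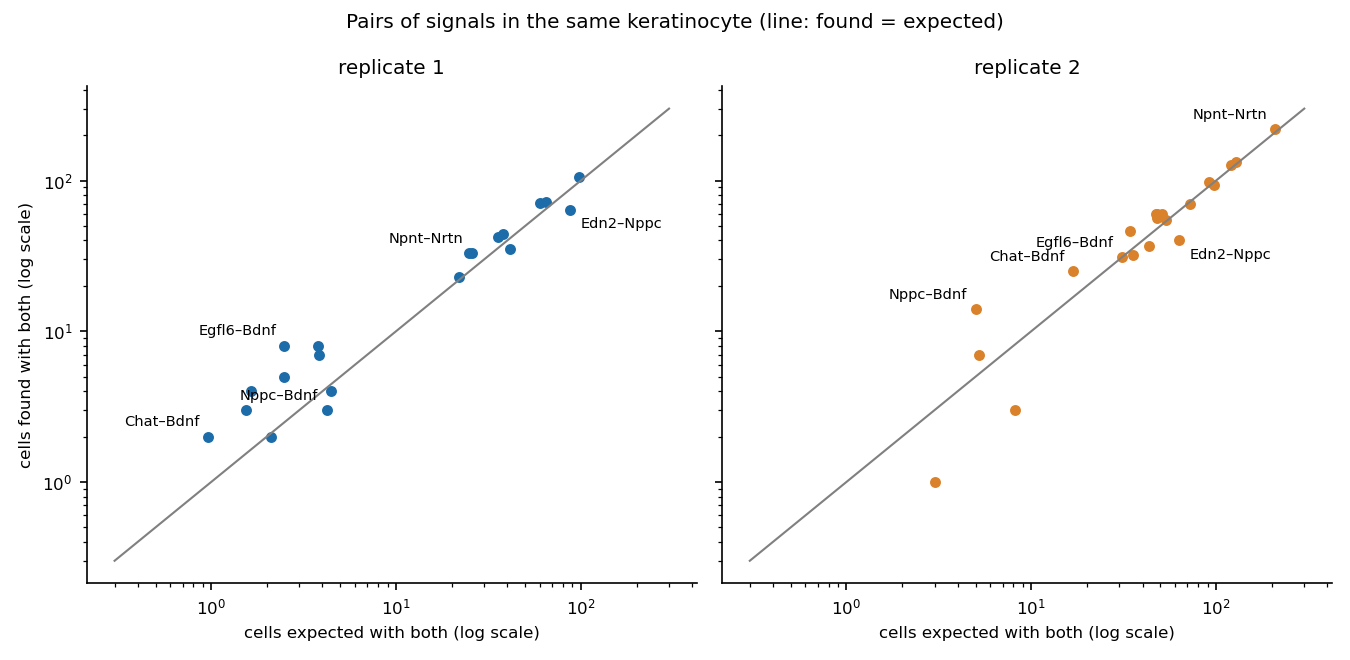
Thinned keratinocytes found with both signals of a pair (vertical axis, log scale) against the count expected within cluster and depth class (horizontal axis, log scale), one point per pair and one panel per library, with the line of equal counts. Edn2 with Nppc lies under the line in both panels, and pairs found in 0 cells, such as Edn2 with Chat in replicate 1, are not drawn.

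Cycling keratinocytes held less Nppc and Npnt than non-cycling ones. Nppc averaged 22.5 and 15.5 CPM over the cycling clusters, against 107 and 107 CPM over the non-cycling clusters (log2 -1.28 ± 0.35, SE; adjusted p = 0.0081), and Npnt 5.82 and 3.11 CPM against 41.3 and 78.0 CPM (log2 -2.19 ± 0.77; adjusted p = 0.037). By the edgeR quasi-likelihood test 2 of 7 signals were lower, where 11.9% of genes were lower. Both genes were also low in the non-cycling clusters other than 3 and 8, so that the contrast does not separate cycling from state. Neither was called when the clusters were drawn at resolution 0.8. Edn2 was 187 and 132 CPM in cycling cluster 6 and 15.9 and 16.3 CPM in cycling cluster 7. Its mean over the cycling clusters was not called different (log2 -0.09 ± 0.20, adjusted p = 0.83), nor was that of Egfl6 (0.09 ± 0.24, 0.86) or Nrtn (-0.53 ± 0.34, 0.27).

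Receptors of several of the signals had few UMIs in keratinocytes. Itga8, the receptor chain for nephronectin, had 10 and 10 UMIs in all keratinocytes and stood at 8.86 and 3.15 CPM in cluster 9. Npr2, the Nppc receptor, had 16 and 6 UMIs, and Npr1 and Npr3 were not called among the non-cycling clusters (adjusted p = 0.94 and 0.38, edgeR quasi-likelihood test). Npr3 was highest in cluster 4, which lies outside that test, and had 13 and 119 UMIs in all keratinocytes. Levels in cluster 9 were 22.2 and 6.29 CPM for Npr2, 31.0 and 15.7 for Npr1 and 19.9 and 3.15 for Npr3. Cluster 9 was small (69 and 43 cells), and 1 UMI there was 2.22 CPM in replicate 1 and 3.15 CPM in replicate 2. Its replicate 2 values of Itga8, Npr2 and Npr3 thus rest on very few UMIs. The muscarinic receptor genes Chrm1, Chrm3 and Chrm4 had 10 and 2, 0 and 0, and 0 and 1 UMIs, and the nicotinic receptor genes Chrna7 and Chrna9 had 0 and 0, and 1 and 4. Slc5a7, the choline transporter, had 0 in both libraries.

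The receptors of the nerve signals were found in keratinocytes in part. Ret reached 56.5 and 40.9 CPM in cluster 5, and Gfra2, the coreceptor of neurturin, 14.1 and 6.25 CPM in the same cluster. Gfra1, the coreceptor of GDNF, reached 52.5 and 63.5 CPM in cluster 8, and Ngfr 41.6 and 17.6 CPM in cluster 5. Ntrk2 was low, at 8.75 and 2.85 CPM in cluster 8, and higher in cluster 9, at 28.8 and 40.9 CPM. Of the endothelin receptors, Ednra stood at 15.3 and 24.3 CPM in cluster 8, where Edn2 was low, and Ednrb at 2.48 and 0 CPM in cluster 3, while cluster 9 had 26.6 and 25.2 CPM of Ednra and 51.0 and 37.8 CPM of Ednrb. Ednra was called in the joint test (adjusted p = 3.10e-06) and Ednrb was not (0.16). Itgb1, the common beta chain of these integrins, was 363 and 434 CPM in cluster 5, and Itgav was not called (adjusted p = 0.46).

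**Figure D5:**
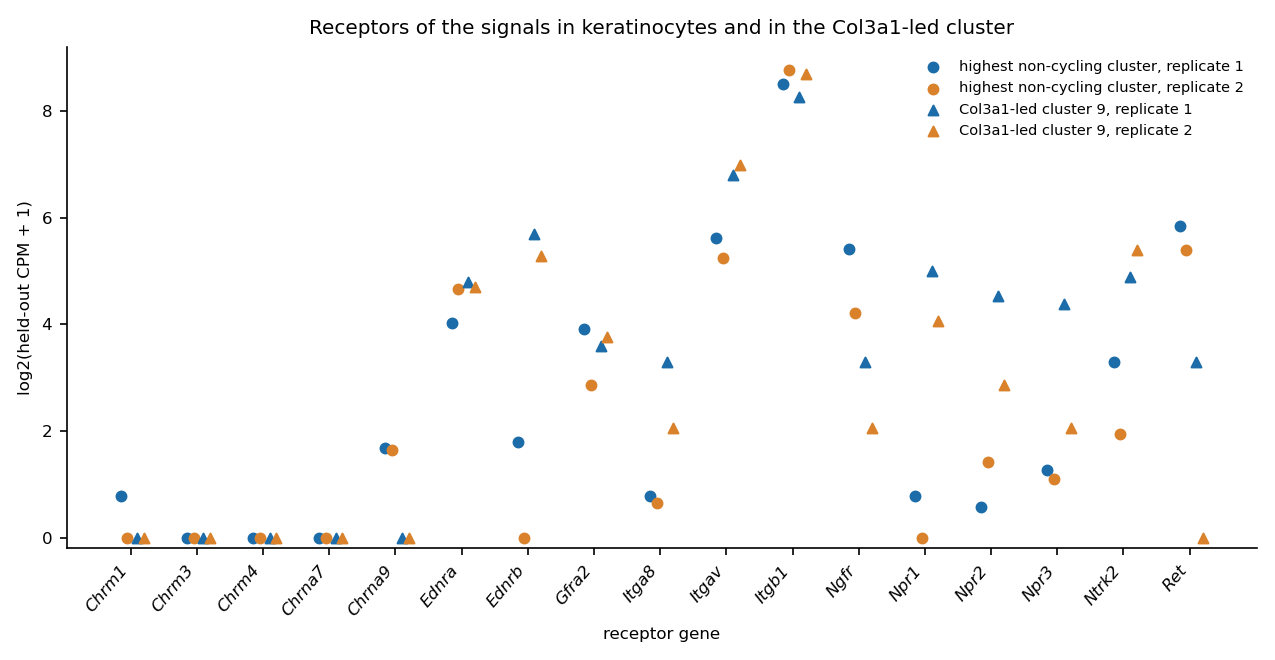
Level of the receptors of the 7 signals (vertical axis, log2 of held-out CPM + 1) in the non-cycling cluster where each is highest (circles) and in Col3a1-led cluster 9 (triangles), with replicate 1 in blue and replicate 2 in orange. Ret and Ngfr are higher in keratinocytes than in cluster 9, while Npr1, Npr2, Ednrb and Ntrk2 are higher in cluster 9 in both libraries. The Npr2 value of cluster 9 in replicate 2 rests on very few UMIs.

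Of 90 further genes of these pathways, listed for their function, 56 could be tested and 41 were called in the joint test (73.2%, beside 41.5% of all genes). By their highest non-cycling cluster, 12 fell in cluster 8, 12 in cluster 5, 8 in cluster 3, 7 in cluster 2 and 2 in cluster 1. Of all 4491 genes called, 1163 fell in cluster 8, 1273 in cluster 5, 755 in cluster 3, 929 in cluster 2 and 371 in cluster 1, a split near that of the listed genes. Among neurotrophic ligands, 7 of 9 tested were called. Ptn, a heparin-binding growth factor, reached 1256 and 2097 CPM in cluster 8, Nrg1 164 and 61.6 CPM in cluster 3, Ntf5 52.9 and 67.1 CPM in cluster 5, and Manf 231 and 182 CPM in cluster 2. Neurotrophin and GDNF receptors gave 6 of 7, with Sort1 at 20.4 and 26.7 CPM in cluster 2 beside those above. Of the acetylcholine genes, 4 of 16 could be tested and 2 were called, Ly6d (875 and 696 CPM in cluster 8) and Slc44a2 (65.6 and 62.0 CPM in cluster 5). Ly6d is also one of the leading genes of cluster 8.

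In the endothelin list, 4 of 5 were called: Ece1, the enzyme that matures endothelins, was highest in cluster 2 with 206 and 172 CPM, Edn1 in cluster 5 with 59.3 and 73.3 CPM, and Ednra and Mme in cluster 8, all among the non-cycling clusters. Mme was highest of all in cluster 4. Edn1 and Edn2 were therefore highest in different clusters. The natriuretic list gave 3 of 5, with Prkg2 at 31.8 and 34.7 CPM in cluster 5 and Furin, a protease, at 82.5 and 63.3 CPM in cluster 3. Of vessel signals, 7 of 8 were called, among them Angptl4 (624 and 469 CPM in cluster 1), Cxcl12 (313 and 311 CPM in cluster 2) and Sema3c (54.7 and 83.5 CPM in cluster 8). Vegfa was called as well, at 29.6 and 9.66 CPM in cluster 5, and Angptl2 at 32.5 and 41.4 CPM in cluster 2. The integrin and matrix list gave 8 of 12, with Itgb6 (89.9 and 120 CPM) highest in cluster 3 and Fbln1 (85.3 and 73.5 CPM) in cluster 8 among the non-cycling clusters. The matrix genes Tnc (284 and 184 CPM) and Fras1 (21.7 and 27.3 CPM) were highest in cluster 2. Matrix and tendon genes of muscle and nerve ends gave 5 of 7. Postn was highest in cluster 8 (337 and 345 CPM), Agrn, which organises nerve and muscle contacts, in cluster 3 (140 and 241 CPM), the tendon factor Scx in cluster 3 (93.9 and 159 CPM) Fbln5 in cluster 5 (104 and 117 CPM) and Lamb2 in cluster 3 (16.9 and 19.2 CPM).

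Genes whose levels followed each signal most closely were ranked by the smaller of the per-library Pearson r of log2(CPM + 1) over the 9 keratinocyte clusters, given as a description. They were Tgfbi, Camk4 and Gm53 for Npnt (r of 0.899 to 0.942), Ppp1r14c, Cachd1 and Clstn1 for Egfl6 (0.926 to 0.977), and S100a13, Anxa8 and H2-T23 for Nrtn (0.903 to 0.942). For Bdnf they were Mfap3l, Aplp1 and Nog (0.920 to 0.966), and for Chat 2310050C09Rik, Ntrk2 and Krt1 (0.962 to 0.992), where most clusters hold no Chat and r rests on cluster 8. The r of Bdnf leans on cluster 8 as well, with at most 8.03 CPM in any other keratinocyte cluster and library. Edn2 was followed by Gpx8, Cyba and Hspg2 (0.920 to 0.946). Nppc had less close matches, Arid5a, Oxtr and Slc15a1 (0.780 to 0.918). The clusters of a library share its depth and its cells, and 9 points are few.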

How the data were processed

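The authors deposited UMI counts per gene and cell barcode, not normalized; Cell Ranger 3.1.0, mm10 and Seurat 3.1 are named in the submitters' processing notes. The 7 genes, the lists and the tests were chosen with earlier results of these data known, and the rule sorting clusters into cycling, mixed, non-cycling and other cells was set after the clusters were seen. Coordinates come from GENCODE M21 (GRCm38).

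Replicate 1 held 6592 barcodes and 52344178 UMIs, replicate 2 held 5080 and 38678103. Scrublet's automatic threshold called 0 doublets, so the highest-scoring 0.8% per 1000 barcodes were called (214 and 131 of the cells kept by rule). UMIs were split binomially (probability 0.5, seed 1). One part was clustered with Leiden (leidenalg 0.10.2, scanpy 1.11.5, resolution 0.5). Held-out counts were summed per cluster and library (at least 20 cells in both) and fitted with edgeR 4.0.16 in R 4.3.3: quasi-likelihood, two-sided, TMM, a library term, 20 sums, 9 residual degrees of freedom, 10812 genes, Benjamini-Hochberg, threshold 0.05. The script was tested on simulated data. The SE given with a log2 fold change is the absolute log2 fold change divided by the square root of the F value of its test. It restates the test and is not a spread between libraries. DESeq2 1.42.0 was an alternative. Shares carry Clopper-Pearson and CPM exact Poisson 95% intervals (scipy 1.17.1), which cover counting error only. A count of 0 allows up to 3 counts. Free RNA was not removed.

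Of each list, up to 5 called genes with the highest mean CPM over non-cycling clusters were named, with all receptors of the 7 signals whatever their value, and the 3 genes most like each signal. Qbrick, 1 of the 90 listed genes, had no row under that name. A few genes that these rules name are not reported here.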

Additional observations from a re-analysis of the deposited data

How the results depend on the processing

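In 4 of 7 clusterings (doublets kept, mitochondrial limit 20%, resolution 0.3, and the signals and niche genes used to cluster) the Krt24-led and Nrg1-led cells fell into 1 cluster, so clusters 3 and 8 were compared through the same cells; 97.9% to 100% of the Krt24-led cells stayed together in each. The 7 signals all kept their highest cluster except at the 20% limit (4 kept), gene minimum 500 (6), resolution 0.8 (5) and when a library was left out (5 to 7). In the 4 clusterings above, clusters 3 and 8 were matched to the same cluster. A signal kept in that cluster does not tell clusters 3 and 8 apart. Of the 20 calls of a signal in a non-cycling cluster, 13 held at the 20% limit, 13 with doublets kept, 13 at resolution 0.8, 13 with the signals used to cluster, 14 at resolution 0.3 and 17 with DESeq2. Of the 2 cycling calls, 1 held with doublets kept, at the 20% limit, at gene minimum 500 and with the signals used to cluster, 0 at resolution 0.8, and 1 call was made at resolution 0.3, for Edn2. Of the 21 likeness pairs, 13 stayed over r = 0.7 with doublets kept and 11 at resolution 0.8. Directions reversed at resolution 0.3 for Npnt in cluster 1 (log2 0.52), Edn2 in cluster 3 (-1.62) and Edn2 in cycling cells (1.34), and for Nrtn in cluster 3 at resolution 0.3 (3.48), with doublets kept (3.61), at the 20% limit (3.24) and with the signals used to cluster (3.71).

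Left-out libraries kept 19 to 20 of the 20 directions, without replicate 2 losing Chat to the count filter, and 2 to 2 of the cycling ones. Detection kept 6 to 7 signals and co-detection 14 to 15 pairs. The labels hold 1 group, so numbers pair no groups; with no replicate block (no library term), 7 signals were called jointly, 19 of 20 by cluster, 2 in cycling cells and 36 of 41 listed genes. The other alternatives, among them another random split, gene minimum 500 and likeness settings chosen after seeing the data, gave 6 or 7 joint calls, 35 to 43 listed genes and 9 to 13 pairs. Chat is limited by depth, with 7 held-out UMIs in replicate 1.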
